A study of Mus musculus with 6 samples.

Results

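The liver of a stigmasterol-fed mouse was set against the liver of a mouse fed low sitosterol, gene by gene. A gene was analysed when it reached 1 CPM (counts scaled to a common library total) in at least 1 of these 2 libraries, which kept 13230 of the 33639 gene symbols in the table. Both mice were male, lacked ABCG8 in the whole body, received a low sterol diet with 0.005% ezetimibe (a blocker of intestinal sterol uptake) until weaning, and were then kept on their diet for 12 weeks. The liver libraries of mice fed high sitosterol and ergosterol, of the same sex, genotype and feeding before weaning, were used for scaling and as reference levels. The sources used here give no strain, age or sterol content of the feed, and the table analysed has no column for a mouse with an intact pump. Each diet had 1 mouse and 1 library, so that the comparison is between 2 libraries, has no replicate check and allows no p-value.

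ABCG8 and ABCG5 are the 2 parts of the pump that returns plant sterols from liver to bile and from gut cells to the gut lumen, and in its absence plant sterols accumulate throughout the body. Stigmasterol and sitosterol are both plant sterols, and stigmasterol has an additional double bond in its side chain. In liver, sterols hold back SREBP2, the transcription factor of cholesterol synthesis and uptake, and certain sterols activate LXR, a nuclear receptor whose targets export sterols and, through SREBP1c, make fatty acids. The liver is mostly hepatocytes, which make plasma proteins and bile acids, with bile duct cells, matrix-forming stellate cells, endothelium and resident macrophages (Kupffer cells) among them.

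Totals were 49125137 estimated counts in the low sitosterol liver and 50573364 in the stigmasterol liver, so that a gene with 0 counts could stand at up to 0.0611 and 0.0593 CPM. Values below are scaled CPM, that is CPM after TMM scaling over the 4 livers (a factor that sets the bulk of genes level), and ratios are log2 of stigmasterol over low sitosterol with a 95% interval for counting error alone. Where 4 values are given in a row, they stand for the low sitosterol liver, the high sitosterol liver, the ergosterol liver and the stigmasterol liver in that order. A gene is called higher or lower if the 2 levels differed by 2-fold or more and the interval left out equality. By that rule 2787 genes (21.1%) were higher and 1065 genes (8.05%) were lower in the stigmasterol liver, and the median of all analysed genes was 0.04. At 4-fold, 1352 were higher and 299 lower, and at 16-fold 289 and 91. Over all 13230 analysed genes, the stigmasterol liver held the highest level of the 4 livers for 4668 and the lowest for 3948.

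The 2 libraries differed in make-up. The 100 most abundant genes held 52.5% of the counts in the low sitosterol liver and 39.1% in the stigmasterol liver, major urinary proteins went from 7.33% to 0.554%, and mitochondrially encoded genes from 7.11% to 4.66%. The TMM factors were 0.82 and 1.37. Scaling by library totals raises every log2 ratio by 0.73 and TPM (a share of transcripts per length) puts the median of all genes at 0.94, so that 93.2% and 95.3% of the calls would then be higher, against 72.4% here. Of the 2787 higher genes 2786 stayed above 0 under every scaling tried, and of the 1065 lower genes 1042 stayed below 0. Among the members of the gene groups named below, those called kept their sign under every scaling except Sc5d and Hlf. Where a gene or group is said to be level and no scaling is named, TMM scaling is meant. Scaling by totals puts such a gene 0.73 higher. In the plot of every analysed gene, the dashed line shows where equality would lie under scaling by totals.

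**Figure D1:**
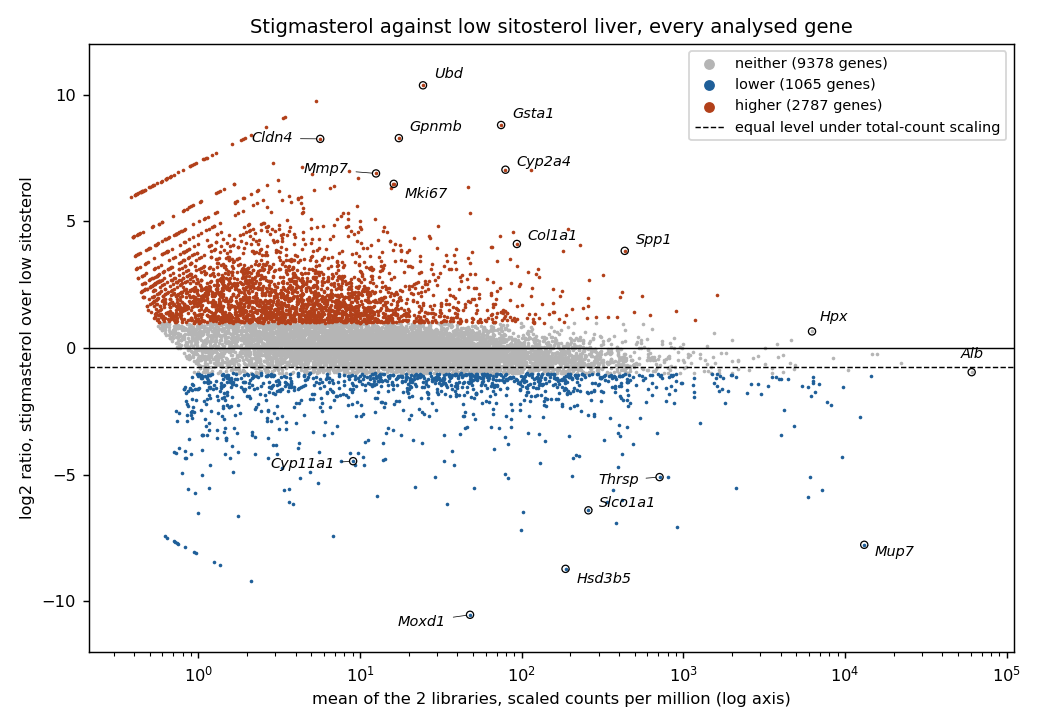
Each dot is 1 of the 13230 analysed genes, by its mean scaled CPM in the 2 libraries (horizontal, log axis) and its log2 ratio of stigmasterol over low sitosterol (vertical, where 3 genes lie outside the range drawn). Red marks the 2787 higher genes, blue the 1065 lower genes and grey the rest, and the dashed line lies 0.73 below 0, where a gene would be level under scaling by library totals.

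Gene groups moved far apart. Among the groups drawn in the plot of gene groups, the medians of the mitotic genes (5.10), the bile duct genes (3.56), the lipid-laden macrophage genes (3.32), the MHC class II genes (2.85) and the collagens (2.68) stood highest. Those of male-biased liver genes (-3.47), pericentral hepatocyte genes (-1.66), liver glucose metabolism (-1.52) and fatty acid synthesis (-1.41) stood lowest. Of the small lists not drawn there, B and plasma cell genes (2.94, 7 analysed) and adrenal cortex genes (-3.89, 8 analysed) lay as far out, as did 2 pancreatic genes (-1.97). Bulk tissue was measured, so that more cells of a type and more RNA per cell cannot be told apart.

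**Figure D2:**
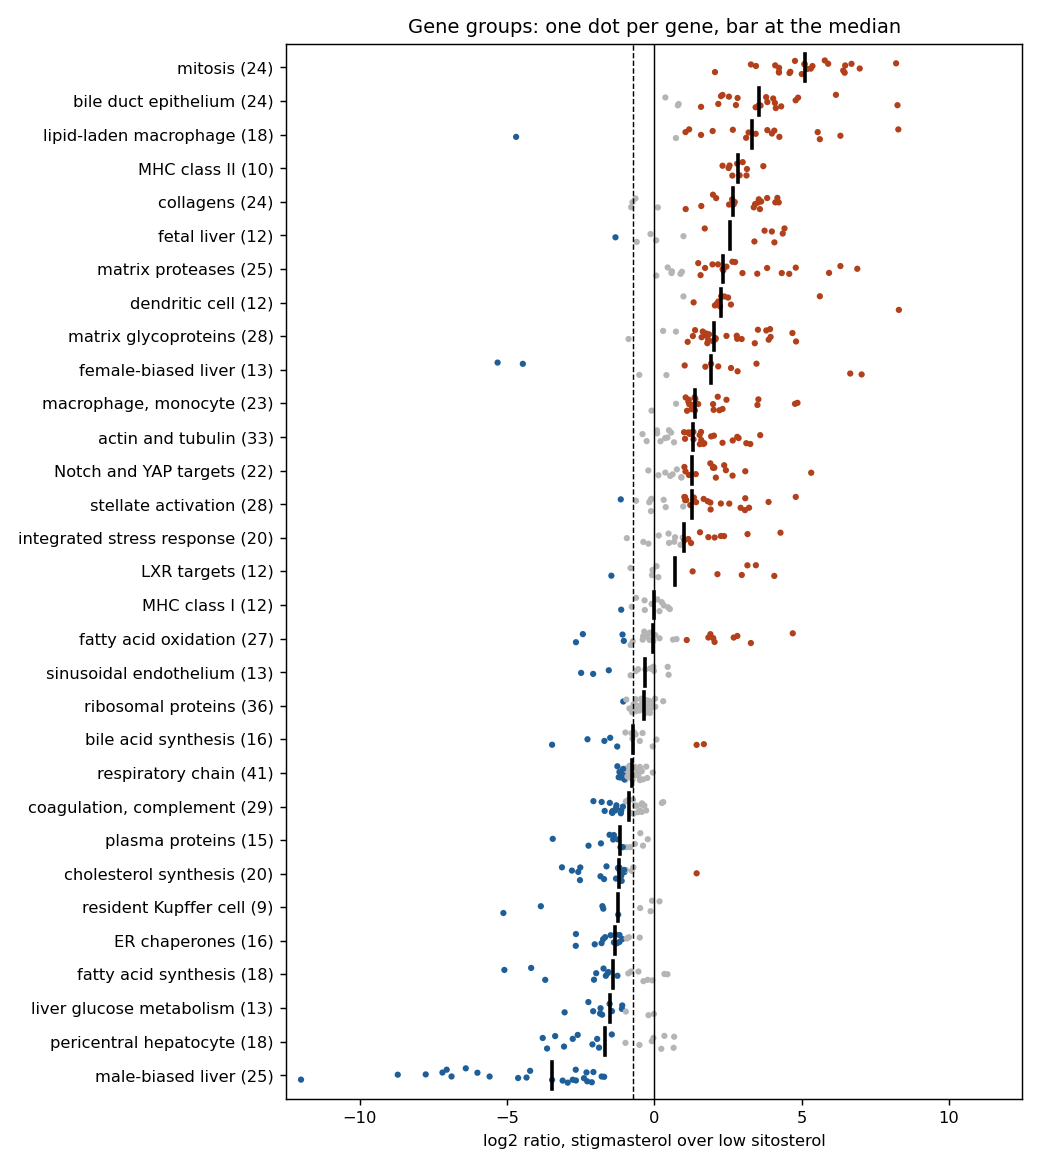
Each dot is 1 gene of a group, by its log2 ratio of stigmasterol over low sitosterol (Mup15, with 0 counts in the stigmasterol liver, is drawn at the left edge), and the black bar is the group's median. Red dots are higher, blue dots lower and grey dots neither, numbers in brackets count the analysed genes, and the dashed line marks equality under scaling by library totals.

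The pump itself was measured at the RNA level. Abcg8 (GRCm38 chromosome 17, 84676302 to 84700333, plus strand) had 51 counts in the low sitosterol liver and 788 in the stigmasterol liver, and Abcg5 had 480 and 8979. Abcg5 was 10.9-fold higher (log2 3.45, interval 3.32 to 3.58). The sources used here do not say which part of Abcg8 was deleted, the genes overlap and reads carry no strand, so these counts neither check the knockout nor separate the partners fully.

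Enzymes of cholesterol synthesis were mostly lower, to an extent that depends on the scaling. Of 20 analysed enzymes 16 were lower and 1 was higher, with a median of -1.21, which remained below 0 under scaling by totals (-0.48) and on TPM (-0.22). Under scaling by totals 6 of the 20 were lower and 1 was higher. Sqle, squalene epoxidase, stood at 41.3, 20.5, 13.9 and 7.23 scaled CPM, lowest in the stigmasterol liver (log2 -2.52, interval -2.66 to -2.37). Mvd, which decarboxylates mevalonate diphosphate, stood at 26.6, 9.01, 9.38 and 3.01 (-3.14, interval -3.36 to -2.93). Tm7sf2, a sterol reductase, was at -2.80, Fdps, which makes farnesyl diphosphate, at -2.59, and Nsdhl, a demethylating dehydrogenase, at -2.53. The stigmasterol liver held the lowest level of the 4 livers for 16 of the 20 enzymes.

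Hmgcs1 (-0.71) and Mvk (-0.77) were not called, and Hmgcs1, Mvk and the called gene Sc5d turn to the other side of 0 under another scaling.

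**Figure D3:**
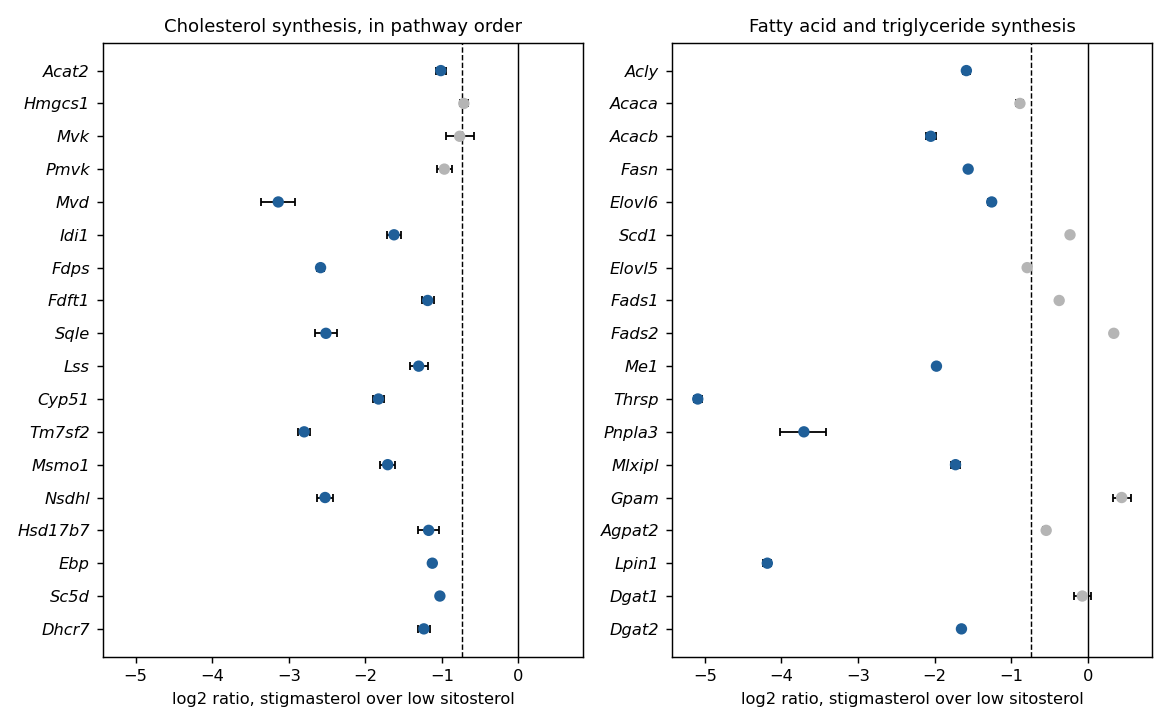
Log2 ratios of stigmasterol over low sitosterol (horizontal) for enzymes of cholesterol synthesis in pathway order (left) and for genes of fatty acid and triglyceride synthesis (right), with bars for the 95% counting interval, which is often narrower than the dot. On the left 15 of the 18 genes drawn are lower (blue), and on the right Thrsp, Lpin1 and Pnpla3 lie farthest below 0, while the dashed line marks equality under scaling by library totals.

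Promoters of 3 of these enzymes are shown because SREBP2 acts with NF-Y, which binds CCAAT boxes, and Idi1 (-1.63) was chosen for them after its values were seen. The 150 bases before the start site are from RefSeq (GRCm38.p6), 5′ to 3′ on the gene's strand, with CCAAT (on either strand, so ATTGG as well) and, in Hmgcs1, the sterol regulatory element letters TCACNCCAC in capitals. The stretches are chr8:122443423-122443572 (minus) for Mvd, chr13:8885456-8885605 (plus) for Idi1 and chr13:119690201-119690350 (plus) for Hmgcs1.
Mvd: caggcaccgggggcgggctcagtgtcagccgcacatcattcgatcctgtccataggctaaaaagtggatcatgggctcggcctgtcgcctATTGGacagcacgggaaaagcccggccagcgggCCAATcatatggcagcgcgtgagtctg
Idi1: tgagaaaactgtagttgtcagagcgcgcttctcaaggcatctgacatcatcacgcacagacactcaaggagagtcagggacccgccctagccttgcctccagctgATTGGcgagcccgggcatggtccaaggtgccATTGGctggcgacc
Hmgcs1: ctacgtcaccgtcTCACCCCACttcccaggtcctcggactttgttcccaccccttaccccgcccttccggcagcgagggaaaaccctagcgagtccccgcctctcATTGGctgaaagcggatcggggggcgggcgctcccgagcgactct
Within 250 bases before the start site and on both strands, CCAAT was present in 14 of the 15 cholesterol synthesis genes that have a promoter entry, all but Acat2, and in 40.6% of the 10011 analysed genes with an entry. The letters TCACNCCAC were present in 1 of the 15, Hmgcs1, and in 1.3% of all. A match is a run of letters and not a measured binding site.

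Genes that sense and take up sterols were lower in part. Of 11 analysed genes 5 were lower and none was higher (median -0.84). Under scaling by totals 3 were lower and none higher (median -0.10, and -0.08 on TPM), so the size of the difference depends on the scaling. Stard4, which carries sterols inside the cell, stood at 112, 48.3, 62.2 and 21.1 scaled CPM (-2.40), and Insig1, which retains SREBP2 in the endoplasmic reticulum, at 223, 298, 208 and 56.1 (-1.99). Scap, the sterol-sensing escort of SREBP2, was at -1.15. Srebf2 itself was level (0.15), but was at 0.88 under scaling by totals and 1.10 on TPM.

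LXR targets split. Of 12 analysed genes 6 were higher and 1 lower (median 0.72). Lpl, lipoprotein lipase, stood at 25.7, 259, 129 and 433 scaled CPM (4.07), Arl4c at 2.97 and Abcg1, an exporter of sterols from macrophages and other cells, at 4.08, 12.4, 6.72 and 18.0 (2.14). Mylip, a ubiquitin ligase, was at 1.30. Abca1, which loads cholesterol onto apolipoprotein A-I, was level at 102, 87.1, 110 and 97.8, Srebf1 was at 0.07, and Pltp, the phospholipid transfer protein, was lower (-1.46). Lpl and Abcg1 are also genes of macrophages, whose markers were higher as well, and the part of those cells in these values was not tested.

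Of 25 genes of sterol esters and lysosomes 6 were higher and none was lower (median 0.30), close to the 21.1% higher among all analysed genes. Under scaling by totals 14 were higher, as were 5252 of all analysed genes. Soat1, the sterol-esterifying enzyme of macrophages, stood at 5.26, 9.03, 4.32 and 11.6 scaled CPM (1.13), and Soat2, the enzyme of hepatocytes, at 35.4, 37.8, 35.3 and 26.1 (-0.44). Npc1, which moves cholesterol out of lysosomes, was at -0.89, and neither Soat2 nor Npc1 keeps its sign under every scaling.

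Fatty acid and triglyceride synthesis was lower at most but not every step. Of 18 analysed genes 10 were lower and none higher (median -1.41, and -0.67 under scaling by totals). Thrsp, a lipogenic regulator, stood at 1385, 676, 272 and 40.6 scaled CPM (-5.09), and Lpin1, a phosphatidate phosphatase, at 793, 427, 134 and 43.6 (-4.18). Both were far lower in the stigmasterol liver than in each other liver, and the ergosterol liver was next lowest. Pnpla3, a lipid droplet hydrolase, was at -3.71, and Acacb, which makes the malonyl-CoA that restrains fat burning, at -2.05. Fasn, fatty acid synthase, stood at 1163, 971, 1321 and 394 (-1.56). Scd1, the main desaturase, stood at 15764, 14889, 29778 and 13437 (-0.23), and Fads2 (0.34) and Gpam (0.44) were above 0, so the pathway did not move as a block.

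Sugar-handling genes of hepatocytes were lower in 10 of 13 analysed genes, with none higher (median -1.52). Pklr, liver pyruvate kinase, stood at 715, 279, 423 and 86.5 scaled CPM (-3.05). Pck1 (-0.20) and Fbp1 (-0.02), of glucose production, were level. Of 14 glycolysis genes used mainly outside hepatocytes 7 were higher and 1 lower, among them Pfkp (2.47), Hk1 (2.23) and Pkm (1.82), the kinases that hepatocytes mostly replace by other forms.

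Fatty acid oxidation and PPARA targets went both ways, with 9 of 27 higher and 4 lower (median -0.04). Cyp4a14, an omega-hydroxylase, stood at 14.3, 61.0, 1009 and 371 scaled CPM (4.70), Acot2 at 3.28 and Acot1 at 2.82 (both thioesterases), and Pdk4, which turns off pyruvate oxidation, at 2.69. For Cyp4a14 the ergosterol liver was higher still. Fabp1, the main fatty acid binding protein of hepatocytes, was lower at 7122, 4108, 4265 and 1323 (-2.43). Cyp4a12a, which is also a male-biased gene, was at -2.66.

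Bile acid synthesis divided at its first steps. Cyp7a1, the rate-limiting enzyme, stood at 13.5, 71.2, 145 and 36.6 scaled CPM, higher than in the low sitosterol liver (1.43, interval 1.30 to 1.57) and lower than in the high sitosterol and ergosterol livers. Cyp8b1, which sets the share of cholic acid, stood at 347, 160, 625 and 71.9 (-2.27), lowest of the 4. Cyp7b1, of the alternative pathway and male-biased, was at -3.47, Cyp27a1 at -1.70, and Cyp39a1, which acts on oxysterols, at 1.68. In all, 2 of 16 genes were higher and 5 lower, and the median of -0.71 turns to 0.02 under scaling by totals and 0.27 on TPM.

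Bile acid transport genes went both ways, with 5 of 13 analysed genes higher and 5 lower. Slc10a1, the sodium-dependent uptake carrier, stood at 910, 342, 576 and 65.2 scaled CPM (-3.80), and Slco1a1 at 511, 225, 309 and 6.03 (-6.40, interval -6.55 to -6.27). Slco1b2 was at -2.05. Another uptake carrier, Slco1a4, was higher, at 11.2, 19.4, 23.9 and 28.6 (1.36). Abcb11, the canalicular bile salt pump, stood at 464, 263, 529 and 192 (-1.27). Of the genes for export toward blood, Abcc4 stood at 1.06, 1.44, 1.16 and 9.17 (3.09) and Abcc3 at 55.4, 64.4, 241 and 120 (1.11). Slc51b was at 3.79 on 4 counts in the low sitosterol liver (interval 2.55 to 5.85). Its partner Slc51a had 0 counts in each of the 4 livers, so higher Slc51b RNA does not show a higher level of the pair. Abcb1a, a drug exporter, was at 2.82.

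Hepatocyte products were lower without a uniform loss of hepatocyte identity genes. Of 19 hepatocyte transcription factors 9 were lower and 1 was higher, at a median of -0.58 that becomes 0.15 under scaling by totals and 0.38 on TPM. Hnf4a stood at 626, 465, 519 and 299 scaled CPM (-1.07), but was at -0.33 under scaling by totals and -0.10 on TPM. Onecut1 stood at 61.0, 7.94, 6.25 and 5.61 (-3.44), and Prox1 at 25.6, 44.4, 72.8 and 57.0 (1.15). For Onecut1 the low sitosterol liver stood apart from the other three livers. Esrrg was at -5.57 on 2 counts in the stigmasterol liver (interval -8.96 to -3.98).

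Of 15 plasma protein genes 9 were lower and none higher (median -1.15). Alb, serum albumin, stood at 80069, 108802, 83963 and 41394 scaled CPM (-0.95), while its share of all counts was 6.60% and 5.67% in the low sitosterol and stigmasterol livers and its TPM 35989 and 36316. Its difference therefore rests on the scaling. Rbp4, the retinol carrier, was at -1.40. Of 29 coagulation and complement genes 13 were lower and none higher (median -0.87), against 2 lower and 1 higher under scaling by totals (median -0.14, and -0.07 on TPM), with C8b at -2.07 and Klkb1 at -1.69, while C3 (0.30) stood slightly above 0. The stigmasterol liver was the lowest of the 4 for 26 of these 29. Of 16 apolipoprotein genes 4 were lower and Apoc2 (1.18) was higher, and their median of -0.83 turns to 0.13 on TPM. Apoa2 stood at 9979, 8142, 8773 and 2978 (-1.74) and Apoe at 26794, 30613, 29967 and 17633 (-0.60), which does not keep its sign.

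Acute phase genes showed no common direction, with 5 of 23 higher and 6 lower (median 0.02). Under scaling by totals 8 were higher and 1 lower (median 0.76, and 0.69 on TPM), so this balance depends on the scaling. Lcn2, a lipocalin that binds bacterial iron carriers, stood at 6.97, 100, 2.80 and 169 scaled CPM (4.59), Il1rn at 3.19 and Saa2 at 2.12. Saa1 was at 58.7, 155, 81.6 and 123 (1.07). Saa4 (-2.20), Hamp, the iron hormone hepcidin (-1.39), and Crp (-1.37) were lower. The fibrinogen genes Fgb (-1.21) and Fgg (-1.16) were lower as well.

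Pericentral hepatocyte genes, which are active near the draining vein, were lower in 10 of 18 with none higher (median -1.66, and -0.93 under scaling by totals). Cyp2e1 stood at 8643, 5077, 8240 and 1031 scaled CPM (-3.07), Glul, glutamine synthetase, at 1256, 429, 989 and 122 (-3.37), Cyp1a2 at -3.64 and Slc1a2, a glutamate carrier, at -3.79. The Wnt targets and regulators of the same list did not follow them: Rnf43 was at 0.67, Axin2 at 0.65 and Tbx3 at -0.03. Wnt2 (-2.49) and Wnt9b (-2.08), ligands from the endothelium, were lower. Of the 24 genes of urea and amino acid metabolism, mostly periportal, 6 were lower and none higher, and their median of -0.42 turns to 0.31 under scaling by totals.

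Every one of the 25 analysed male-biased genes was lower, with a median of -3.47 (-2.74 under scaling by totals and -2.51 on TPM). Hsd3b5, a steroid dehydrogenase of male liver, stood at 373, 58.9, 132 and 0.880 scaled CPM (-8.71, interval -9.11 to -8.36). Mup7 stood at 26181, 2102, 6800 and 120 (-7.76) and Mup3 at 14112, 4500, 5394 and 292 (-5.60). Mup15, with 97573 counts in the low sitosterol liver and 0 in the stigmasterol liver, was at least 55727-fold lower, but it also had 0 counts in the high sitosterol liver. Mup20 stood at 12521, 2242, 1703 and 2870 (-2.13). The stigmasterol liver was the lowest of the 4 for 22 of the 25. Reads of the near-identical Mup genes cannot be told apart with certainty.

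Of 22 female-biased genes 13 were analysed, of which 9 were higher and 2 lower. Cyp2a4 stood at 1.19, 199, 0.851 and 158 scaled CPM (7.04), which sets the stigmasterol and high sitosterol livers apart from the other pair. Sult1e1, the estrogen sulfotransferase, stood at 0.0494, 31.3, 0.403 and 6.20 (6.65 on 2 counts, interval 5.11 to 10.02). The female-biased genes Cyp2c40 (-4.47) and Cyp2c69 (-5.32) were lower. Growth hormone sets this sex pattern, and of 19 genes of growth hormone and IGF signalling 4 were higher and 7 lower (median -0.04), against 8 higher and 1 lower under scaling by totals. Ghr, the receptor, was at -1.68, Socs2 at -1.54, Igfals at -1.46 and Cish at -1.15. Igf1 at 589, 631, 392 and 300 (-0.97) fell just short of 2-fold, but was at -0.24 under scaling by totals and -0.10 on TPM. Igfbp1 was 4.64-fold higher, at 148, 134, 391 and 688, and Igfbp7 (2.25), Igf1r (1.33) and Stat5a (1.30) were higher too.

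Drug-metabolizing enzymes went both ways. Of 31 analysed Cyp2 and Cyp3 genes 16 were lower and 9 higher. Cyp2c37 (-5.14), Cyp2c54 (-4.97) and Cyp2c50 (-4.25) were among the lowest, although Cyp2c55 of the same family was higher (2.94). Cyp2b10, a target of the receptor CAR, stood at 0.124, 2.24, 2.02 and 8.11 scaled CPM (5.90 on 5 counts, interval 4.80 to 7.66). Cyp3a11, a target of the receptor PXR, was 4.30-fold higher, at 613, 563, 1149 and 2636, the largest gain in scaled CPM of all genes after that of Hpx, while Cyp3a25 (0.27) and Cyp3a13 (0.61), named after their values were seen, were not called. Reads within these families are assigned with uncertainty. Among 28 glutathione and NRF2 genes 10 were higher and 6 lower (median 0.35). Under scaling by totals 15 were higher and 1 lower (median 1.09), so this balance depends on the scaling. Gsta1 stood at 0.321, 8.46, 4.19 and 149 (8.80, interval 8.08 to 9.77), Slc7a11, the cystine importer, at 4.28, Cbr3 at 4.16 and Nqo1 at 2.18, whereas Gstp1 (-1.70) and G6pdx (-2.46) were lower.

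The stigmasterol liver stood highest of the 4 livers for 24 of 24 bile duct genes. Of these 21 were higher and none lower (median 3.56). Epcam stood at 1.78, 1.26, 1.05 and 31.2 scaled CPM (4.12, interval 3.79 to 4.49), Krt19 at 1.93, 1.13, 1.12 and 11.2 (2.53) and Sox9 at 3.56, 11.2, 3.74 and 17.1 (2.26). The other three livers lay close together for Epcam and Krt19, while for Sox9 the high sitosterol liver was raised too. Cldn4, a tight junction protein, stood at 0.0247, 0.196, 0.0224 and 11.3, which rests on 1 count in the low sitosterol liver (8.26, interval 6.36 to 14.14). Spp1, osteopontin, made by duct cells and macrophages (chromosome 5, 104435118 to 104441050, plus strand), stood at 56.8, 55.8, 32.0 and 811 (3.84). Cftr, the chloride channel (4.88), and Sctr, the secretin receptor (4.80, on 1 count), were higher, and Anxa4 (0.80) and Cldn3 (0.37) were not called. Genes of gut and gallbladder lining were few: of 12 listed 4 were analysed and only Vil1 (3.87) was higher.

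Genes of fetal and progenitor liver were higher in 7 of the 12 analysed of 17 listed and lower in 1. Tspan8 stood at 2.002, 0.957, 1.77 and 41.3 scaled CPM (4.36), Cd24a at 4.08, Ly6d at 4.42 and Sox4 at 3.74. Afp, the classical fetal plasma protein, was level at 3.93, 2.89, 1.57 and 3.59 (-0.13), and Gpc3 was at -0.60. Targets and parts of the Notch and YAP pathways were higher in 14 of 22 with none lower (median 1.29). Ankrd1, a YAP target, was at 5.33 on 3 counts (interval 3.98 to 7.83), Tgfb2 at 3.09, Ctgf at 2.66 and Ajuba at 2.43, whereas Yap1 itself was at -0.21 and Hes1 at 0.37.

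Matrix genes were higher nearly throughout. Of 24 analysed collagens 20 were higher and none lower (median 2.68). Col1a1 (chromosome 11, 94936224 to 94953042, plus strand) stood at 10.2, 14.97, 7.19 and 177 scaled CPM, 17.2-fold higher (log2 4.11, interval 3.97 to 4.25), and Col3a1 at 23.6, 35.0, 23.8 and 336 (3.83). Per length, Col3a1 reached 164 TPM and Col1a1 49.6 TPM in the stigmasterol liver. Col18a1 (-0.64) and Col27a1 (-0.79) were not called and turn above 0 under another scaling. Of 28 matrix glycoproteins 25 were higher, with Eln, elastin, at 2.08, 1.76, 1.54 and 58.6 (4.81), Ltbp2, a microfibril protein, at 4.69 and Fbn1, fibrillin, at 3.93. Fn1, the fibronectin that hepatocytes secrete, was at -0.88.

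Of 28 stellate cell and matrix cross-linking genes 19 were higher and 1 lower (median 1.28). Timp1, an inhibitor of matrix proteases, stood at 0.395, 0.914, 0.179 and 11.4 scaled CPM (4.80), Loxl1, a cross-linking oxidase, at 3.88, and Pdgfra at 3.22. The contractile genes Acta2 and Myl9 did not move with them in scaled CPM. Acta2, smooth muscle actin, stood at 10.5, 1.48, 2.98 and 9.82 (-0.10, interval -0.28 to 0.08), and Myl9 was at -0.12. Acta2 was at 0.63 under scaling by totals and 0.85 on TPM. For Acta2 the low sitosterol and stigmasterol livers were both above the other pair. Lrat, of quiescent stellate cells, was level (-0.12). Matrix proteases and their inhibitors were higher in 19 of 25 analysed of 28 listed. Mmp7, of injured epithelium, stood at 0.198, 0.609, 0.0672 and 24.9 (6.89), Mmp12, of macrophages, at 6.32, and Mmp2 at 4.33.

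Genes of mitosis were all higher, 24 of 24, with a median of 5.10, and the stigmasterol liver was the highest of the 4 livers for each. Mki67 (chromosome 7, 135689784 to 135716361, minus strand) stood at 0.346, 8.01, 1.88 and 32.0 scaled CPM (6.48, interval 5.78 to 7.40) and Cdc20, the activator of the anaphase complex, at 0.346, 1.94, 2.15 and 31.6 (6.46). Cdk1, named for its promoter after its values were seen, stood at 0.692, 4.31, 1.61 and 24.2 (5.10), and Ccnb1, its cyclin, at 6.97 on 5 counts. Ttk, a spindle checkpoint kinase with 0 counts in the low sitosterol liver, was at least 49.2-fold higher. The low sitosterol liver was the lowest for each gene whose 4 values are given here. DNA replication genes differed less: 10 of 22 were higher and none lower (median 0.91), with Mcm6 at 2.40 and Mcm5 at 2.24 but Tk1 at 0.13 and Ccne1 at -0.59. Among cell cycle regulators 10 of 15 were higher. Ccnd1, cyclin D1, stood at 23.9, 73.4, 28.4 and 122 (2.35), and Cdkn1a, the inhibitor p21, at 11.05, 20.8, 35.9 and 84.6 (2.94).

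Promoters of 2 mitotic genes are shown because genes of this phase share CCAAT boxes and the cell cycle homology region. Capitals mark CCAAT and TTTGAA on either strand in the 150 bases before the start site, chr4:118437344-118437493 (minus) for Cdc20 and chr10:69352913-69353062 (minus) for Cdk1, from RefSeq on GRCm38.p6.
Cdc20: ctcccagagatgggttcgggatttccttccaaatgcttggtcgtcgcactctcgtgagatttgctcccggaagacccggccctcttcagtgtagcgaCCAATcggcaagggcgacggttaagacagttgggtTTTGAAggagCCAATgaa
Cdk1: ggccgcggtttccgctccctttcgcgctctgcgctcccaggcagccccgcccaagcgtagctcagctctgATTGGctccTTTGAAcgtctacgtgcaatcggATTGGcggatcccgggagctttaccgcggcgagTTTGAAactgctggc
In the 250 bases before the start site, CCAAT was present in 17 of the 19 mitotic genes with an entry, against 40.6% of all analysed genes with an entry, and TTTGAA in 8 of 19, against 13.3%. Among replication genes the counts were 9 and 2 of 16.

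Macrophage genes separated by type. Of 18 genes of lipid-laden macrophages 16 were higher (median 3.32). Gpnmb stood at 0.0988, 20.8, 0.313 and 34.7 scaled CPM (8.28 on 4 counts, interval 7.10 to 10.33) and Trem2, a lipid-sensing receptor, at 1.28, 10.3, 1.57 and 24.6 (4.24). Both were high in the high sitosterol liver as well. Itgax was at 5.62 and Ctsk at 5.55. Fabp5, a fatty acid binding protein of the same list that hepatocytes can express, was lower at 764, 293, 169 and 29.5 (-4.70). Of 23 general macrophage and monocyte genes 21 were higher (median 1.39), with Ms4a7 at 4.86, Cx3cr1 at 4.78 and Ccr2, the monocyte chemokine receptor, at 0.939, 1.76, 1.12 and 10.8 (3.50). Adgre1, encoding F4/80, stood at 5.66, 15.5, 18.0 and 22.9 (2.01). The genes of resident Kupffer cells went the other way, with 5 of 9 lower and none higher (median -1.23). Clec4f stood at 80.4, 220, 131 and 23.7 (-1.76), Timd4 at 3.01, 1.15, 6.85 and 0.202 (-3.86) and Cd163 at 8.30, 0.979, 11.6 and 0.231 (-5.13). Clec4f and Timd4 were lowest in the stigmasterol liver of the 4, as was Cd163.

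Antigen presentation genes of class II were higher in 10 of 10 (median 2.85), highest in the stigmasterol liver for each. H2-Aa stood at 31.7, 105, 47.0 and 223 scaled CPM (2.81) and Cd74, the invariant chain, at 75.2, 255, 136 and 560 (2.89). The 12 class I genes were level (median 0.00), with 1 lower. Under scaling by totals 3 were higher and none lower (median 0.74, and 0.94 on TPM). Dendritic cell genes were higher in 11 of 12, among them Ccr7, the lymph node homing receptor, which had 0 counts in the low sitosterol liver and 270 in the stigmasterol liver and so was at least 52.5-fold higher. Of the lymphocyte lists, 11 of 20 T and NK cell genes and 7 of 13 B and plasma cell genes were analysed, of which 7 and 6 were higher. Il7r stood at 0.124, 0.653, 0.202 and 1.85 (3.77), Jchain, of secreted antibody, at 1.26, 2.42, 1.03 and 16.5 (3.69), and Igha, the heavy chain of IgA, at 2.27, 4.07, 0.963 and 93.1 (5.35), while Cd4 (-1.05) was lower. Of 14 neutrophil genes 7 were analysed, with 2 higher and none lower (median 0.87). Prtn3 (2.14) and Retnlg (1.21) were the higher ones, while S100a8 stood at 2.47 and 2.03 and S100a9 at 3.86 and 4.31 in the 2 livers. Red cell genes, a measure of blood in the tissue, differed little in scaled CPM, with Hbb-bs at 137 and 203 and Hba-a1 at 93.7 and 109. Of 6 analysed 1 was lower and none higher (median 0.29). Under scaling by totals 3 were higher and none lower (median 1.02, and 1.25 on TPM), so this depends on the scaling.

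Of 29 chemokines 19 were analysed, 10 of them higher and 1 lower. Ccl22 stood at 0.148, 0.218, 0.179 and 3.995 scaled CPM (4.64 on 6 counts), Cx3cl1 at 1.06, 1.63, 0.873 and 19.2 (4.16) and Ccl2, which draws monocytes, at 1.28, 7.27, 0.381 and 3.66 (1.5004), below the high sitosterol liver. Of 20 analysed cytokine and NF-kB genes 10 were higher and 4 lower. Ltb, lymphotoxin beta, was at 5.04, Lif at 3.71 and Relb at 2.83, whereas Il1b (-1.38), Il1a (-1.35), Il18 (-1.34) and Il1r1 (-2.13) were lower. Endothelial genes moved little. Of 13 sinusoidal genes 3 were lower, and their median of -0.31 turns to 0.43 under scaling by totals. Of 12 vascular genes Cd34 (3.08) was the one called.

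**Figure D4:**
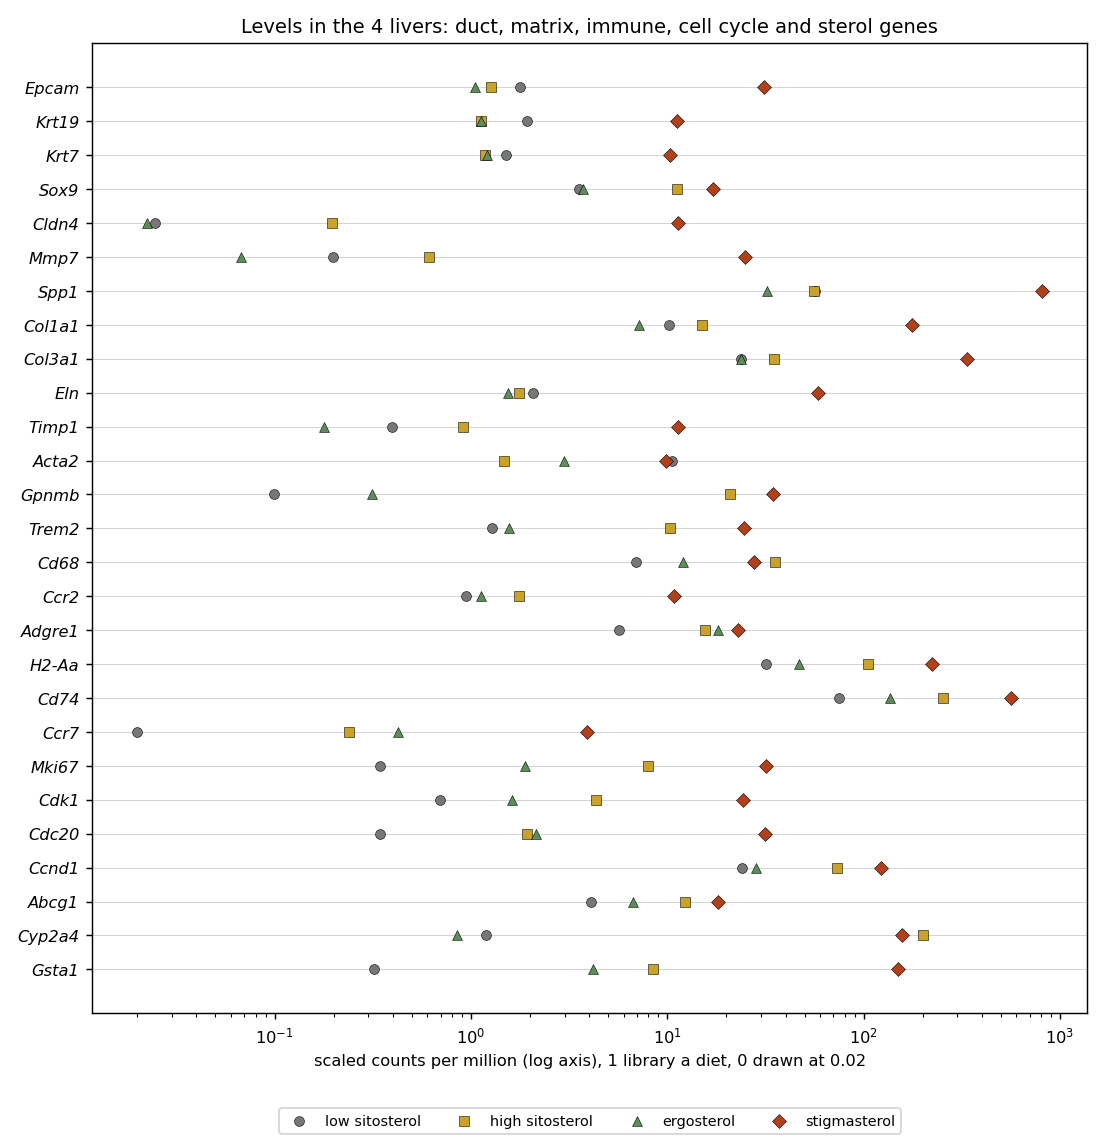
Scaled CPM (log axis) of genes of bile duct, matrix, macrophages, antigen presentation, cell cycle and sterol handling, 1 symbol per liver library. The stigmasterol liver (red diamonds) lies to the right for most genes, Acta2 is level with the low sitosterol liver, and Gpnmb, Trem2 and Cyp2a4 are also high in the high sitosterol liver.

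Chaperones of the endoplasmic reticulum were listed with other genes of its stress response, such as Xbp1, Herpud1, Edem1 and Sel1l. Of these 16 genes 13 were lower and none higher (median -1.35). The stigmasterol liver was the lowest of the 4 for all 16. Hspa5, the chaperone BiP, stood at 1345, 641, 591 and 422 scaled CPM (-1.67), Creld2 at 139, 41.8, 30.6 and 21.8 (-2.67) and Sdf2l1 at 74.7, 43.4, 22.8 and 11.8 (-2.66). For each of these the low sitosterol liver was well above every other liver. The stigmasterol liver, though lowest, was 2-fold or more below every other liver for 0 of the 16 genes. Xbp1, the transcription factor of the pathway, was at -1.74. The median stayed below 0 under scaling by totals (-0.61) and on TPM (-0.50).

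Promoters of 2 of these genes are shown for the endoplasmic reticulum stress element, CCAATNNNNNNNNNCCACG, which is read by ATF6 with NF-Y and contains a CCAAT box. Capitals mark it on either strand in chr2:34771940-34772089 (plus) for Hspa5 and chr15:88819496-88819645 (plus) for Creld2, from RefSeq on GRCm38.p6.
Hspa5: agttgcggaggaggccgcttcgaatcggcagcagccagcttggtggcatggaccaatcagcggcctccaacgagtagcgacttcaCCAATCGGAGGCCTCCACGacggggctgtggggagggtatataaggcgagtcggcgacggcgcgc
Creld2: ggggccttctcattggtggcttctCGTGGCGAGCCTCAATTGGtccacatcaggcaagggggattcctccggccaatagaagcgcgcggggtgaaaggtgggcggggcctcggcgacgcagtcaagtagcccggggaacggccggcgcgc
These letters were present in 6 of the 14 genes of the chaperone list with an entry and in 0.16% of all analysed genes with an entry.

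The amino acid branch of the stress response differed from the chaperone list. Of 20 genes of the integrated stress response 10 were higher and none lower (median 0.99). Phgdh, of serine synthesis, stood at 0.544, 0.348, 0.134 and 4.98 scaled CPM (3.16), Asns, asparagine synthetase, at 2.45, 3.63, 0.202 and 12.7 (2.37) and Ddit4 at 2.26, whereas Atf4 (-0.20), Ppp1r15a (-0.38) and Chac1 (-0.93) were not called. Of 14 heat shock genes 7 were lower and 1 higher (median -1.06). Under scaling by totals 3 were lower and 1 higher (median -0.32, and -0.09 on TPM). Hspa1b stood at 75.5, 800, 46.3 and 7.14 (-3.40), Hsph1 at -2.19 and Hspa8 at -1.62. The metallothioneins Mt1 and Mt2 were higher at 1.66 and 1.77. Respiratory chain genes were lower in 8 of 41 with none higher, at a median of -0.75 that turns to 0.17 on TPM, beside the lower share of mitochondrially encoded counts given above. Ribosomal protein genes had 1 of 36 lower and a median of -0.36, which turns to 0.38 under scaling by totals.

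Circadian genes differed in a patterned way. Of 18 genes 8 were lower and 4 higher. Dbp, an output gene of the clock, stood at 127, 169, 6.16 and 7.99 scaled CPM (-3.99), Ciart at -3.74 and Nr1d1, a repressor, at 192, 141, 91.5 and 29.6 (-2.70). Npas2 stood at 0.371, 0.239, 3.85 and 6.10 (3.995) and Arntl, the core activator, at 3.71, 1.78, 12.8 and 15.9 (2.09). For Dbp, Npas2 and Arntl the 2 sitosterol livers lay on one side and the ergosterol and stigmasterol livers on the other. The sources used here do not state the hour at which tissue was taken, and the part of the hour in other differences was not tested.

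**Figure D5:**
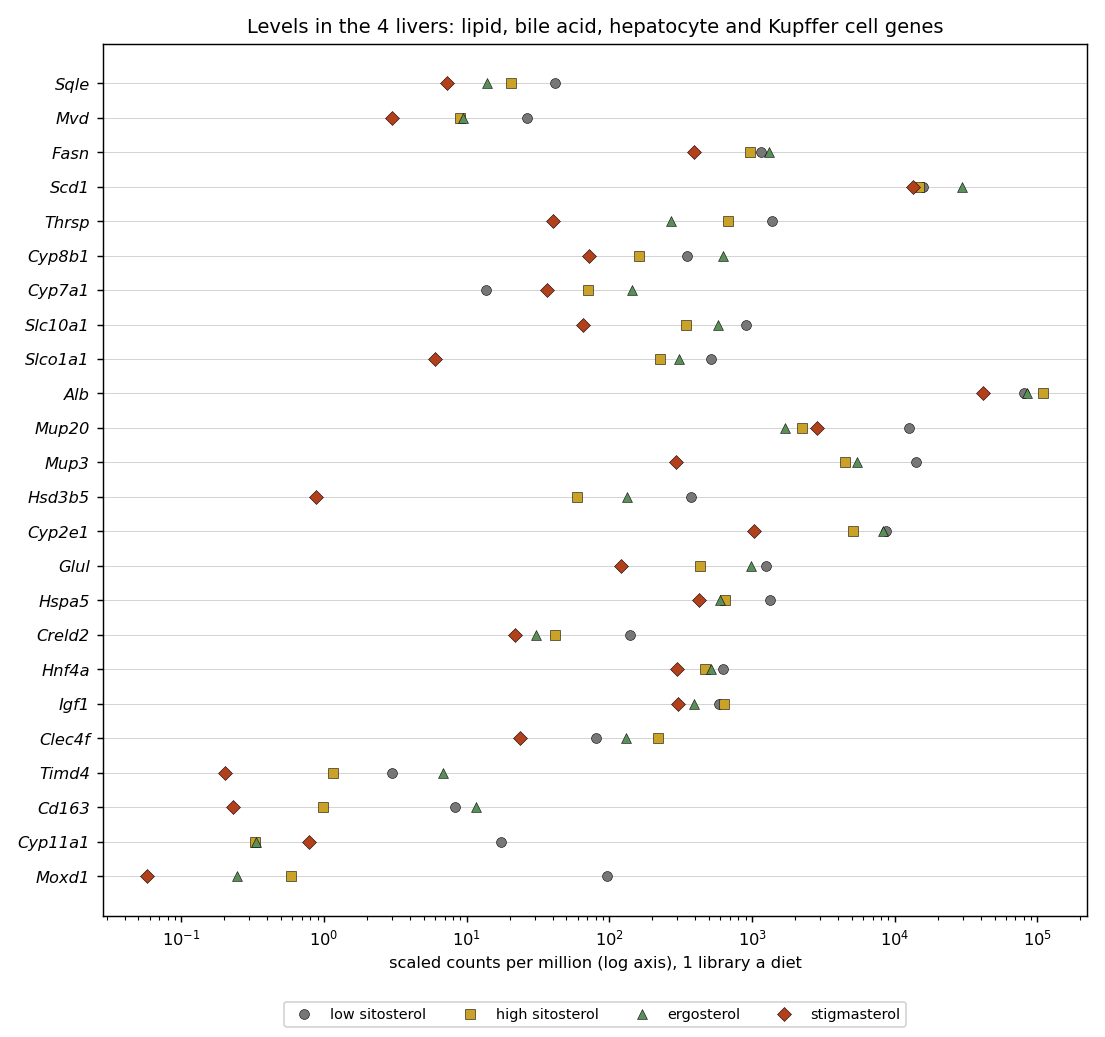
Scaled CPM (log axis) of genes of sterol, fat and bile acid metabolism, plasma and male-biased proteins, chaperones and resident macrophages, 1 symbol per liver library. The stigmasterol liver (red diamonds) lies to the left for most genes, Cyp7a1 is above the low sitosterol liver, and for Cyp11a1 and Moxd1 the low sitosterol liver alone stands to the right.

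Some lower calls came from genes that were high in the low sitosterol library alone. Of 8 analysed genes of the adrenal cortex 7 were lower (median -3.89). Cyp11a1, the first enzyme of steroid hormone synthesis, had 702, 15, 15 and 54 counts, and Star, which feeds cholesterol to it, 1044, 64, 80 and 134. In the low sitosterol liver Cyp11a1 stood at 0.300% and Star at 0.138% of the level in the adrenal glands of the series. Their summed level, with the rest of the list, of which Mrap makes up most in the other livers, was 181 scaled CPM there and 53.2 to 61.7 in the other three livers. Moxd1 stood at 95.8, 0.588, 0.246 and 0.0577 (-10.53) and Stox2 at 68.6, 0.348, 0.425 and 0.966 (-6.14), so that the low sitosterol liver stood apart for both. Of 5 analysed genes of the mesothelial list, Upk3b (-3.37) and Msln (-2.63) were lower, and Krt7 (2.77, also a bile duct gene), Gpm6a (1.99) and Wt1 (1.13) were higher. Whether other tissue in the low sitosterol sample played a part in these values was not tested. Kidney tubule genes were not detected above the analysis level in either library.

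The extremes of single genes were as follows. The highest ratio was that of Ubd, a ubiquitin-like protein of inflamed epithelium, at 0.0247, 6.68, 0.940 and 49.0 scaled CPM, on 1 count in the low sitosterol liver (10.37, interval 8.47 to 16.26). Lrtm2, with 0 counts there and 736 in the stigmasterol liver, was at least 143-fold higher. Among genes with at least 10 CPM in the stigmasterol liver, Cldn4, Mmp7, Eln, Igha and Sftpd stood highest above every other liver, and Tspan8, Ehf, Gsta1, Epcam and Ltbp2 came next. At the other end Hsd3b5, Slco1a1, Sult2a8, Mup10 and Cyp2c54 stood lowest under every other liver, with Sult2a8, a bile acid sulfotransferase, at 664, 339, 469 and 9.76 (-6.09). Among all 2787 higher genes the stigmasterol liver held the highest level of the 4 livers for 2514 (90.2%), and among the 1065 lower genes the lowest for 921 (86.5%). Over all 13230 analysed genes these counts were 4668 and 3948. A call already places the stigmasterol liver above or below the low sitosterol liver, which by itself raises these shares.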

How the data were processed

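The authors deposited 2 tables over all libraries, estimated counts per gene symbol and TPM. The submitters' processing notes name kallisto 0.43.1, HISAT2 2.0.5, Trimmomatic 0.33 and build mm10, without roles. The sources used here state no annotation or filters. Per the labels' protocols, RNA was extracted with RNeasy and libraries were made with TruSeq RNA v2.

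The deposited estimated counts were rounded to whole numbers, and 1 row naming no gene (0 counts) was left out. TMM factors came from edgeR 4.0.16 (R 4.3.3) over the 4 livers. Ratios used a prior count of 0.5, and exact (Clopper-Pearson) 95% intervals and limits from 3 counts cover counting error only. Coordinates came from GENCODE M21 (32158 symbols matched). The procedure was tested on simulated data with counting error alone, in which few genes changed, as many up as down. Those data lacked the shift in make-up between these 2 libraries, so they do not test the scaling under it. Alternatives were scaling by totals, by DESeq2 1.42.0 size factors, by TMM on the 2 libraries, without the 100 most abundant genes, a prior count of 2, filters and 4-fold. The authors' TPM were compared on the log2(TPM + 0.1) scale, which understates low genes.

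The comparison, the gene lists and the rule for named genes were chosen with earlier results of these data known. Named genes were Abcg8, Abcg5 and a set of liver and sterol genes, the 15 highest and 15 lowest ratios (at least 10 CPM in the higher library), the 10 largest gains and losses, the 10 standing farthest above or below every other liver, and up to 6 members at each end of a list. Every list symbol was looked up in the table, and members under the 1 CPM limit are not counted. Some list members are counted but not reported here by name.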

Additional observations from a re-analysis of the deposited data

How the results depend on the processing

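The count of higher genes went from 2787 to 5252 under scaling by totals, 6196 on TPM, 1086 with a filter of 10 CPM and 1352 at 4-fold. The count of lower genes went from 1065 to 383 under scaling by totals, 603 when the 100 most abundant genes were left out of the totals, 303 on TPM, 1902 without a filter and 299 at 4-fold. The share of calls that were higher was 72.4%, against 93.2% under scaling by totals, 86% without the 100 genes, 95.3% on TPM, 65.8% without a filter and 60.4% with 10 CPM. With DESeq2 size factors, 2779 were higher and 1079 lower.

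Some group medians turned above 0. Listed first are those whose interval, taken from the ranked ratios of the members, lay wholly below 0. Under scaling by totals these were bile acid synthesis (0.0217), hepatocyte transcription factors (0.15), sinusoidal endothelium (0.43) and ribosomal proteins (0.38). Without the 100 genes they were sinusoidal endothelium (0.0695) and ribosomal proteins (0.0205). On TPM they were apolipoproteins (0.13), bile acid synthesis (0.27), hepatocyte transcription factors (0.38), sinusoidal endothelium (0.54), respiratory chain (0.17) and ribosomal proteins (0.56). Medians with an interval that included 0 turned as well. Among them, under scaling by totals, were fatty acid oxidation (0.70), bile acid transport (0.63) and urea and amino acid metabolism (0.31).

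Under scaling by totals fewer members of the lower groups were called lower. For fatty acid synthesis these were 5 of 18 against 10, and for the chaperone list 5 of 16 against 13. For glucose metabolism they were 6 of 13 against 10, for plasma proteins 3 of 15 against 9, and for heat shock genes 3 of 14 against 7.

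No paired analysis was possible because each group had 1 library, and leaving out a library was not possible either. The intervals cover counting error and not differences between mice, so that differences between diet and mouse cannot be told apart.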

Other observations

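Further gene groups were counted beside a background of 21.1% higher and 8.05% lower. Of 33 genes of actin, tubulin and their partners 23 were higher and none lower (median 1.33), with Tubb2b at 3.59 on 6 counts, Anxa2, a membrane-binding annexin, at 17.6, 39.7, 28.9 and 169 scaled CPM, in the order of livers used above (3.26), and S100a4 at 3.12. Actb itself was at 0.21. Of 24 p53 and apoptosis genes 8 were higher and none lower (median 0.60), with Eda2r at 2.75 and Phlda3 at 2.57, while Casp8 was at -0.87. Of 25 interferon-stimulated genes 8 were higher and 1 lower (median 0.47), with Rsad2, an antiviral enzyme, at 4.30, 3.87, 6.74 and 18.8 scaled CPM (2.13) and Iigp1 at -1.21.

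Of 17 analysed iron genes 2 were higher and 3 lower, with Smad6 at 1.63 and Hamp2 at -1.80. Of 5 analysed genes of fat cells 4 were higher and 1 lower (median 1.87). Cidec, a lipid droplet gene that fatty livers also express, stood at 5.83, 4.90, 16.6 and 63.4 scaled CPM (3.44) and Cidea was at 3.59. Cfd, adipsin, was lower (-2.24). Under the 1 CPM limit, Plin1 had 22 and 1 counts in the low sitosterol and stigmasterol livers and Adipoq 28 and 3. Without the filter the median was -2.67, so the list has no common direction. Klf6 (2.30) and Egr2 (4.02, on 6 counts) were the highest of 16 analysed immediate early genes, 3 of which were higher and none lower.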
